A study of Homo sapiens with 44 samples.

Results

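The genes described here are 43 assembly factors of the large (60S) ribosomal subunit, the proteins that fold, cut and clear the 28S and 5.8S rRNA precursors and that carry the maturing particle out of the nucleolus. They were taken as a list of names and not picked by a rule on measured values, but the list was chosen with earlier results of these data known. All 43 have a row among the 23367 gene rows of the deposited count table. All 43 also passed the filter on low counts and are among the 14534 genes tested. The cells were IMR5/75, a human neuroblastoma line with extra copies of the MYCN gene, carrying a short hairpin RNA against MYCN that tetracycline switches on. Every library came from this 1 engineered line after a thymidine block of 18 h, which holds cells at the entry to S phase, and RNA was taken at 0, 3, 6, 8, 10, 12, 14, 16, 18, 20 and 22 h after washout. At each time 2 libraries came from cells with tetracycline (Tet plus, hairpin induced) and 2 from cells without it (Tet minus), 44 libraries in all. No library with tetracycline but without the MYCN hairpin, and none with a control hairpin, was analysed here, so an effect of tetracycline itself and an effect of the hairpin cannot be told apart. The comparison asks how transcripts of this group differ between cells with and without MYCN knockdown, at each time and over the cell cycle.

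A 60S subunit starts as a long rRNA precursor made in the nucleolus, onto which ribosomal proteins and assembly factors bind in a fixed order. Helicases, GTPases and AAA ATPases drive the steps that reshape the particle, placeholder proteins hold the sites of late ribosomal proteins, and adaptors such as NMD3 take it through the nuclear pore. Genes of this machinery are long-known targets of MYC family proteins, which bind DNA as partners of MAX, often at the motif CACGTG.

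The count tables held 10.9 M to 25.3 M gene counts per library (median 20.1 M). Same-numbered libraries of both arms shared lane numbers at 0 to 14 h. At 16 to 22 h the Tet plus libraries had other lane numbers than Tet minus, and titles that name no arm. In replicate 2 these titles also hold other numbers than the hours, and the labels used here name no sequencing run. Some late Tet plus titles repeat both the lane number and the barcode sequence of an earlier library. An equal lane number can therefore not be read as a shared lane between late Tet plus and earlier libraries. In those 8 late Tet plus libraries the ERCC spike-in RNAs took 0.0543 to 0.376% of counts, against 1.13 to 3.43% in the 8 late Tet minus libraries, and small nucleolar RNA rows took 0.935 to 2.41% against 0.289 to 0.713%. Arm and library set (lane numbers and title form) can therefore not be told apart at 16 to 22 h, and the values of 0 to 14 h are given first throughout. Of the noradrenergic neuroblastoma markers, HAND2 was at 256 to 622 CPM (counts scaled to a common library size), ISL1 at 30.9 to 89.2 CPM and GATA3 at 23.9 to 62.0 CPM over the 44 libraries, whereas TH, the first enzyme of catecholamine synthesis, was near 0 (0 to 0.206 CPM). Of 10 tested noradrenergic markers reported here, 7 were higher in Tet plus at 0 to 14 h and none was lower (HAND1, HAND2, ISL1, CHGA, CHGB, DDC and DBH, with log2 fold changes from 0.28 to 1.19), and 6 were higher at 16 to 22 h. With the replicate number as a block PHOX2A passed as higher too at 0 to 14 h. At 16 to 22 h PHOX2A, GATA2 and ISL1 then did (adjusted p of 0.0132 or less, edgeR). The part of the noradrenergic markers in the arm difference of the assembly factors was not tested. Genes of a list for mesenchymal cells or fibroblasts were also present. Together 8 of them were at 703 to 1658 CPM (VIM at 463 to 1113 CPM, COL1A2 and FOSL1 near 0). Of 6 tested, COL1A1 (0.42) and FN1 (0.58) were higher in Tet plus at 0 to 14 h, as were 20.1% of all tested genes. YAP1 (-0.32), PRRX1 (-0.28) and VIM (-0.14) lay below 0 and COL3A1 (0.22) above it, and none of these passed. With the replicate number as a block, each of these passed too (adjusted p of 0.00712 or less, edgeR). In the same libraries 6 epithelial markers together reached 0.517 to 2.58 CPM and 5 leukocyte markers 1.83 to 4.19 CPM. MYCN itself, the target of the hairpin, was at 938 to 1213 CPM (median 1002) in the 14 Tet plus libraries of 0 to 14 h and at 970 to 1479 CPM (median 1228) in the 14 Tet minus libraries. These ranges overlapped. The fitted difference of Tet plus against Tet minus, a log2 fold change written as log2 change in short, was -0.27 (SE 0.0460, adjusted p = 2.71e-05, edgeR quasi-likelihood test), a fall of 17.3%. In the table MYCN is counted over the whole transcript, so it does not show how much protein was left.

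From 0 to 14 h, 42 of the 43 factors were lower with the hairpin induced and none was higher, where 21.3% of all tested genes were lower and 20.1% higher. The median log2 fold change of the 43 was -0.49, against 0.01 for all 14534 genes, and single values ran from -1.01 (RRS1) to -0.01 (NVL). A fall of at least 1.5-fold was seen in 15 factors and of at least 2-fold in 1, and the share of all tested genes with such falls is not given here. Summed over all 43 genes, the factors held 5645 to 7550 CPM (median 6054) in the 14 Tet plus libraries and 7774 to 10707 CPM (median 8640) in the 14 Tet minus libraries, with no overlap. For 15 single factors every one of the 14 Tet plus libraries lay below every one of the 14 Tet minus libraries, a pattern held by 1.09% of tested genes. In bulk RNA, less of a transcript per cell and fewer cells that hold it cannot be told apart. All these values are relative to the other RNAs of a library. Scaled to the spike-ins instead, no factor passed the test at 0 to 14 h: their median log2 fold change was then -0.38 and that of all genes 0.13. Spike-in scaling shifts all genes of a library alike. The distance of -0.51 between these medians was therefore nearly fixed in advance and is no check.

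**Figure D1:**
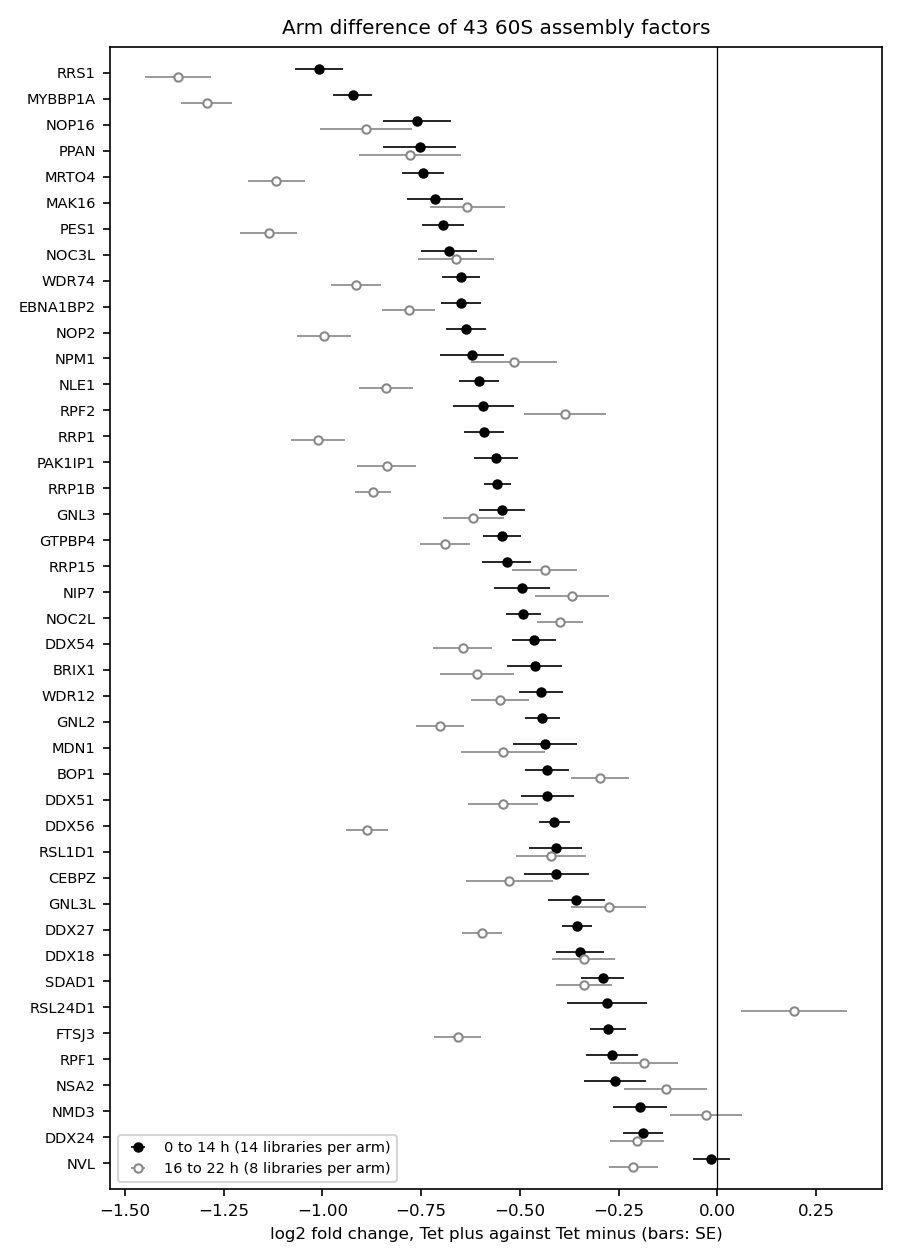
Log2 fold change of Tet plus against Tet minus (x axis) for the 43 factors (rows), with black points for the mean over 0 to 14 h, open points for the mean over 16 to 22 h and bars for the SE. At 0 to 14 h values run from -1.01 for RRS1 to -0.01 for NVL, and at 16 to 22 h RSL24D1 alone lies above 0, at 0.19.

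Bases before the start sites of 6 members are printed here because the group moved together and because MYC family proteins are known for the motif CACGTG. RefSeq promoter entries (GRCh38.p14) were matched for 36 of the 43 genes, with no entry for RRS1, MAK16, RPF2, RRP1B, BOP1, RSL1D1 and DDX18. The motif, which reads the same on both strands and was searched without mismatches, stood once in the 250 bases before the start in 4 of these 36 (11.1%), against 6.5% of all 27305 promoters in the table and 9.0% of the 9837 tested genes that have an entry. The 4 are EBNA1BP2, DDX54, MDN1 and SDAD1, and the capitals below mark the motif. Only a single entry per gene was searched, and neither other start sites nor bases after the start were. All 4 genes lie on the minus strand, and each sequence is given 5′ to 3′ along the gene's strand.
EBNA1BP2 (chr1:43172772-43172820): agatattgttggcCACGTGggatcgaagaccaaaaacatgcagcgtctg
DDX54 (chr12:113185504-113185569): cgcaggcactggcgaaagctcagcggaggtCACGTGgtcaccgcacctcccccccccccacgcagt
MDN1 (chr6:89819914-89819979): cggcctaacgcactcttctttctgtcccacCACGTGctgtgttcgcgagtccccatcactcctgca
SDAD1 (chr4:75991138-75991195): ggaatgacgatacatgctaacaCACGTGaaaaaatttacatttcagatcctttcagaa

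At 0 to 14 h the 4 genes with the motif had log2 fold changes of -0.65 (EBNA1BP2), -0.46 (DDX54), -0.44 (MDN1) and -0.29 (SDAD1), with a median of -0.45. The 32 matched genes without it had a median of -0.49 and ran from -0.92 to -0.01, so their range held that of the 4. The ends of that range were MYBBP1A and NVL, whose last 100 bases before the start site hold no CACGTG and follow.
MYBBP1A (chr17:4555385-4555484, minus strand): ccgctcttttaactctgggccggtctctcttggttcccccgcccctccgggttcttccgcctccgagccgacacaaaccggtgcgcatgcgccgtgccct
NVL (chr1:224330173-224330272, minus strand): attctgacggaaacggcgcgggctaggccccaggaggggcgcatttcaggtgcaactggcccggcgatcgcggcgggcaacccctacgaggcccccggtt

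RRS1 and RPF2 bring the 5S RNP, the particle of 5S rRNA and its ribosomal proteins, into the pre-60S particle. RRS1 was at 10.7 to 20.2 CPM (median 15.1) in Tet plus and at 21.4 to 39.0 CPM (median 32.4) in Tet minus over 0 to 14 h, and the arms did not overlap. Its log2 fold change was -1.01 (SE 0.0608, adjusted p = 1.10e-12), the lowest of the 43. RPF2, its binding partner, was at 15.1 to 25.8 CPM against 17.1 to 44.5 CPM, with overlapping arms, and its log2 fold change was -0.59 (SE 0.0779, adjusted p = 8.50e-07). RRS1 passed the test at each of the 11 times and RPF2 at 3. These and later counts of times for single factors come from the fit without the replicate number as a block.

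The PeBoW complex, formed by PES1, BOP1 and WDR12, is needed to cut the spacer between 5.8S and 28S rRNA. All 3 of its members fell, PES1 from 200 to 279 CPM in Tet minus to 111 to 171 CPM in Tet plus, with no overlap between the arms and a log2 change of -0.70 (SE 0.0538, adjusted p = 9.76e-11). BOP1, the scaffold of the complex, had a log2 change of -0.43 (SE 0.0555, adjusted p = 6.10e-07) and WDR12, its WD-repeat partner, -0.45 (SE 0.0548, adjusted p = 3.02e-07). In both, the highest Tet plus libraries lay within the Tet minus range. BOP1 passed at 4 of the 11 times, with the lowest value at 6 h (-0.80) and -0.16 at 0 h and -0.02 at 22 h, 2 times at which it missed the test.

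The 4 nucleolar GTPases of the list all fell. GNL3, the gene of nucleostemin, had a log2 change of -0.55 (SE 0.0582), GTPBP4 -0.54 (SE 0.0476), GNL2 -0.44 (SE 0.0450) and GNL3L -0.36 (SE 0.0716), with adjusted p from 9.16e-10 to 0.000239. GTPBP4 and GNL2 had no overlap between the 14 and 14 libraries, whereas GNL3L, at 42.0 to 69.1 CPM against 55.2 to 83.9 CPM, overlapped and passed at none of the single times. Among the 4 genes for AAA ATPases and their adaptors the values were furthest apart. The WD-repeat adaptors WDR74 and NLE1 fell by 0.65 and 0.60 on the log2 scale with no overlap between arms, and MDN1, the very large ATPase that NLE1 recruits, fell by 0.44. NVL, the ATPase that acts with WDR74, was at 66.9 to 83.9 CPM (median 71.7) in Tet plus and at 62.4 to 89.0 CPM (median 73.7) in Tet minus, and did not pass the test (log2 fold change -0.01, SE 0.0466, adjusted p = 0.831). The arms of NVL covered the same range, and the sign of its difference turned to above 0 without any 1 of 3 Tet minus libraries (replicate 2 of 8, 12 or 14 h).

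Of the 6 DEAD-box RNA helicases all fell, by less than the list's median: DDX54 by 0.46 on the log2 scale, DDX51 by 0.43, DDX56 by 0.41, DDX27 by 0.35, DDX18 by 0.35 and DDX24 by 0.19. DDX54, DDX56 and DDX27 were the 3 with no overlap between arms, and DDX24, at 237 to 329 CPM against 264 to 371 CPM, passed over 0 to 14 h as a whole (adjusted p = 0.00390) but at no single time. NOP2, which methylates 28S rRNA on cytosine, fell by 0.64 (SE 0.0504, adjusted p = 1.45e-10) with no overlap, from 88.3 to 145 CPM in Tet minus to 57.7 to 85.6 CPM in Tet plus. FTSJ3, a methyltransferase that acts on ribose, fell by 0.28, and NIP7, a partner of FTSJ3, by 0.49. The 2 placeholders moved by unequal amounts. MRTO4, which occupies the site of the stalk base until the stalk protein arrives, was at 48.8 to 80.2 CPM (median 63.9) in Tet plus and 83.1 to 133 CPM (median 107) in Tet minus, with no overlap and a log2 change of -0.75 (SE 0.0533, adjusted p = 2.07e-11). RSL24D1, which takes the place of the ribosomal protein eL24, was at 78.2 to 127 CPM (median 87.8) against 79.5 to 191 CPM (median 109), with 12 of 14 Tet plus libraries above the lowest Tet minus library. Its log2 fold change was -0.28 (SE 0.101, adjusted p = 0.0288), and this call was lost without any 1 of 10 libraries, with adjusted p up to 0.0922.

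The Brix-domain genes PPAN, BRIX1 and RPF1, relatives of RPF2 that bind the early particle, fell by 0.75, 0.46 and 0.27. PPAN rested on few reads, at 2.20 to 4.23 CPM in Tet plus and 3.38 to 7.17 CPM in Tet minus. At 3 h its 2 Tet plus libraries were at 2.65 and 2.20 CPM and its 2 Tet minus libraries at 4.79 and 7.17 CPM, a log2 change of -1.30 (SE 0.247, adjusted p = 0.00380), while the value at 14 h was -0.31 (adjusted p = 0.530). Exons of PPAN overlap those of P2RY11 on the same strand, and those of the joint row PPAN-P2RY11, which held 0 counts. Exons of SDAD1 overlap those of NAAA on the same strand. Reads shared in this way may have been split or dropped, and how they were counted is not given. In all, 17 members share exon sequence with a gene on the opposite strand in the GENCODE v29 annotation, NOC2L with SAMD11 among them, and whether the authors' counting used strand is not given in the sources used here. If it did not, reads of such pairs cannot be told apart.

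All 12 of the other nucleolar factors fell, with a median of -0.56. NOP16 was at 16.5 to 29.1 CPM (median 21.9) against 26.0 to 53.1 CPM (median 37.7) and had a log2 change of -0.76 (SE 0.0865, adjusted p = 8.53e-08). MAK16 and NOC3L followed at -0.72 and -0.68, and EBNA1BP2, RRP1, PAK1IP1, RRP1B and RRP15 lay between -0.65 and -0.53. RRP1B, at 212 to 271 CPM against 317 to 376 CPM, had the smallest SE of the 43 (0.0338), and its arms did not overlap. At the other end were NOC2L (-0.49), RSL1D1 (-0.41), CEBPZ (-0.41) and NSA2, with 49.2 to 80.4 CPM against 47.4 to 98.8 CPM and a log2 change of -0.26 (SE 0.0790, adjusted p = 0.0101). The 2 genes of late nuclear steps and export had small values: SDAD1 fell by 0.29 and NMD3, the adaptor for the export receptor, by 0.20 (SE 0.0692, adjusted p = 0.0244). NMD3 was at 65.2 to 101 CPM against 74.1 to 125 CPM with wide overlap, and its call was lost without any 1 of 10 libraries (adjusted p up to 0.0800).

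MYBBP1A and NPM1 are nucleolar proteins with roles beyond 60S assembly, MYBBP1A in the control of rRNA transcription and NPM1 as a histone and ribosome chaperone. MYBBP1A was at 84.9 to 107 CPM (median 98.0) in Tet plus and 148 to 232 CPM (median 184) in Tet minus. The arms did not overlap, and the log2 fold change was -0.92 (SE 0.0489, adjusted p = 9.75e-14). NPM1 was the most abundant of the 43 per length, at 1296 ± 257 CPM per kb of transcript (SD, n = 14 Tet minus libraries), with GNL3 next at 151 ± 21.2. NPM1 was at 1255 to 2071 CPM (median 1379) in Tet plus and at 1660 to 3335 CPM (median 2242) in Tet minus. Its log2 fold change was -0.62 (SE 0.0817, adjusted p = 8.45e-07), and it passed at a single time, 22 h, although its Tet plus pair was under its Tet minus pair at each of the 7 times to 14 h.

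**Figure D2:**
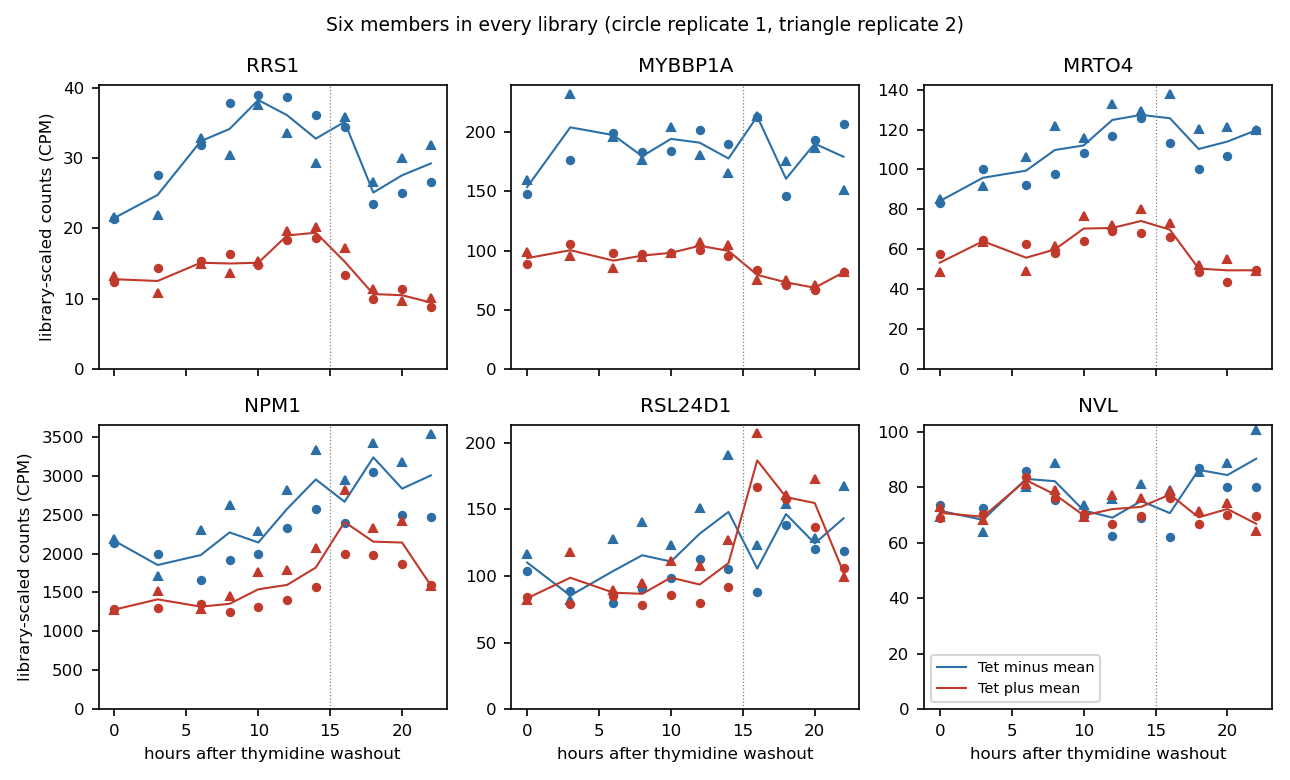
CPM in every library (y axis, from 0) against hours after thymidine washout for RRS1, MYBBP1A, MRTO4, NPM1, RSL24D1 and NVL, with red for Tet plus, blue for Tet minus, lines for the mean of 2 libraries and a dotted line before the 16 h libraries, where the Tet plus lanes differ. Tet plus points of RRS1, MYBBP1A and MRTO4 lie below Tet minus points at every time, and those of NVL lie among them up to 14 h.

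Counted time by time, with 2 libraries against 2, the number of factors that passed as lower was 13 at 0 h (background 1%), 15 at 3 h (1.7%), 22 at 6 h (4.44%), 23 at 8 h (2.06%), 17 at 10 h (2.04%), 19 at 12 h (2.57%) and 17 at 14 h (3.34%). None passed as higher at these 7 times (backgrounds 0.564, 1.02, 2.65, 1.38, 1.36, 1.62 and 2.04%). The replicate number was also fitted as a block, a shift of replicate 2 that is common to all times and both arms. With it the counts at 0, 3, 10, 12 and 14 h were 26, 23, 30, 31 and 29 (backgrounds 4.15, 4.7, 4.95, 6.56 and 8.21%). Median log2 fold changes of the 43 stayed between -0.39 at 3 h and -0.58 at 8 h. The Tet plus pair of libraries lay wholly under the Tet minus pair in 39 factors at 0 h (21.4% of tested genes), 32 at 3 h (19.2%), 35 at 6 h (22.9%), 40 at 8 h (22.6%), 35 at 10 h (23.4%), 42 at 12 h (22.8%) and 38 at 14 h (20.1%). The separation was thus there at washout, at 0 h, and at each later time. Leaving out 1 library at a time took the counts that passed to as few as 1 at 0 h, 2 at 3 h, 8 at 6 h, 4 at 8 h, 5 at 10 h, 5 at 12 h and 2 at 14 h, each time by leaving out a library of that hour. For 27 factors the arms were separated in this way at 7 of 7 times, against 4.12% of tested genes. The mean was lower in Tet plus at 7 of 7 times in 39 factors (18.1%) and at 11 of 11 times in 33 (13.1%).

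RRS1 shows the run of values at single times. At 0 h it was at 12.3 and 13.2 CPM in Tet plus and 21.4 and 21.6 CPM in Tet minus, a log2 change of -0.75 (SE 0.162, adjusted p = 0.0150). At 10 h the libraries were at 14.8 and 15.4 CPM against 39.0 and 37.6 CPM, a log2 change of -1.34 (SE 0.161, adjusted p = 2.87e-05). By 14 h they were at 18.6 and 20.2 CPM against 36.2 and 29.4 CPM, and the value was -0.76. The arms of RRS1 were apart at each of these 3 times. MYBBP1A differed by -0.72 at 0 h, where libraries of 88.6 and 98.6 CPM stood against 148 and 160 CPM, and by -1.11 at 6 h, where 98.1 and 84.9 CPM stood against 200 and 196 CPM. Across the 7 times, however, no factor passed the test that the arm difference depends on time, and none had an unadjusted p under 0.05 (background 0.0138% passed). The smallest unadjusted p belonged to NOP2 (0.0705), BOP1 (0.0895), RRS1 (0.122) and PPAN (0.190), each with an adjusted p of 1. NOP2 ran from -0.83 at 6 h to -0.34 at 14 h.

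**Figure D3:**
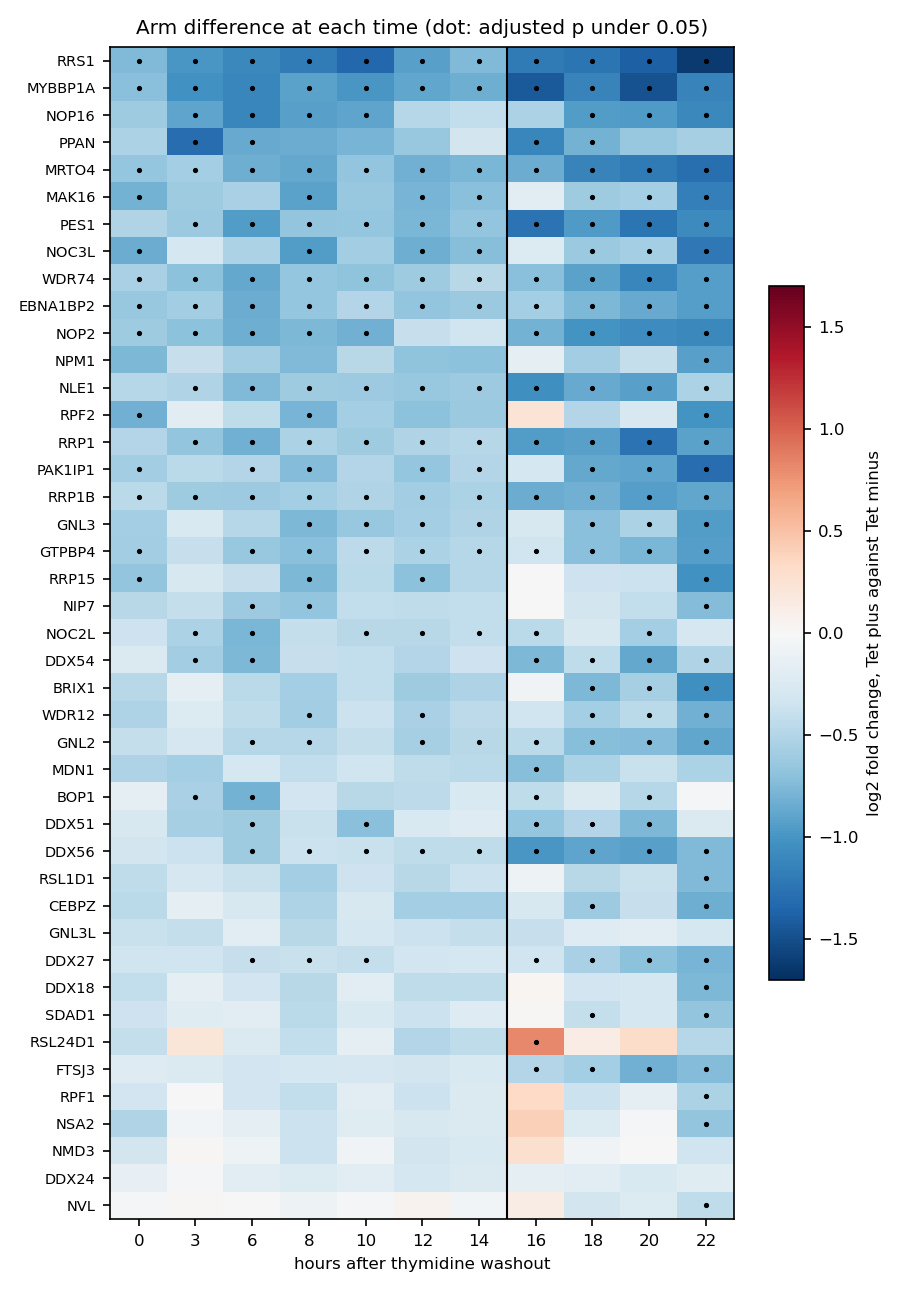
Log2 fold change of Tet plus against Tet minus (colour, blue for lower in Tet plus) for the 43 factors (rows, ordered by the value over 0 to 14 h) at each of the 11 times (columns), with a dot where the adjusted p was under 0.05 and a line between 14 and 16 h. Blue fills nearly all of the first 7 columns, and the 16 h column holds the 1 factor that passed as higher, RSL24D1.

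Within each arm the same factors followed a shallow course. In Tet minus, 9 of the 43 passed a test for any change over 0 to 14 h (background 14.5%), and in Tet plus 5 did (10.4%). The 9 were RRS1, RPF2, NOC3L, WDR12, RPF1, MRTO4, PAK1IP1, SDAD1 and NOP2, and the 5 were RRS1, WDR74, WDR12, PAK1IP1 and SDAD1. Read against those backgrounds, the counts do not set the factors apart. With the replicate block the counts were 18 (34.3% of tested genes) and 9 (25.9%), without Tet minus 3 h replicate 2 the 9 became 4, and without any 1 of 4 Tet plus libraries (replicate 2 of 3, 12 or 14 h, or replicate 1 of 14 h) the 5 became 1. Times on different lanes cannot be told apart from lane. The widest Tet minus ranges of group means were those of NOC3L (0.93 on the log2 scale, lowest at 3 h and highest at 8 h), RPF2 (0.91, 3 h and 14 h), RRS1 (0.83, 0 h and 10 h) and PAK1IP1 (0.76, 3 h and 12 h).

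The pairs of times whose libraries lay on the same lanes showed little movement to 14 h. RRS1 in Tet minus went from 21.4 and 21.6 CPM at 0 h to 31.9 and 32.9 CPM at 6 h, a log2 change of 0.59 (SE 0.159, adjusted p = 0.0424), the 1 factor to pass (background 2.35%). In Tet plus the 1 factor to pass from 0 to 6 h was NOC2L, which fell by 0.44 (SE 0.119, adjusted p = 0.0447, background 2.5%). Neither passed without the filter on low counts, and with the replicate block 2 factors passed in Tet minus (6.31% of tested genes) and 5 in Tet plus (8.59%). From 8 to 12 h, around mitosis, edgeR called none in either arm (background 0.833% in Tet minus and 0.22% in Tet plus). At an unadjusted p under 0.05 there were 1 and 2 factors, a rule for which the share of all tested genes is not given here.

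The median deviation of the 43 factors from their own means over all libraries lay above 0 in Tet minus at every time, from 0.10 at 0 h to 0.36 at 14 h and 0.38 at 22 h. In Tet plus it lay below 0 at every time, at -0.41 at 0 h, -0.09 at 14 h, -0.08 at 16 h and -0.43 at 22 h. Cell cycle markers also moved with the arms. The median deviation of 6 G1/S markers was 0.66 in Tet minus and 0.55 in Tet plus at 0 h, and 0.50 against -0.57 at 14 h; that of 8 G2/M markers was 1.02 against 1.19 at 10 h and 0.05 against 0.35 at 14 h. Of the G1/S markers 4 of 6 were lower in Tet plus over 0 to 14 h, and of the G2/M markers 1 of 8 was lower and 2 were higher. With the replicate block E2F1 and RRM2 of the G1/S markers passed as lower too (adjusted p of 8.31e-05 and 0.0498, edgeR). PLK1 and CDC20 of the G2/M markers then did as well (adjusted p of 0.0154 and 0.0264, edgeR). At 0 h the G2/M medians were -0.73 in Tet minus and -0.83 in Tet plus, and the median arm difference of the 43 was -0.49. The part of cell cycle position in the arm difference, at 0 h or later, was not tested.

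**Figure D4:**
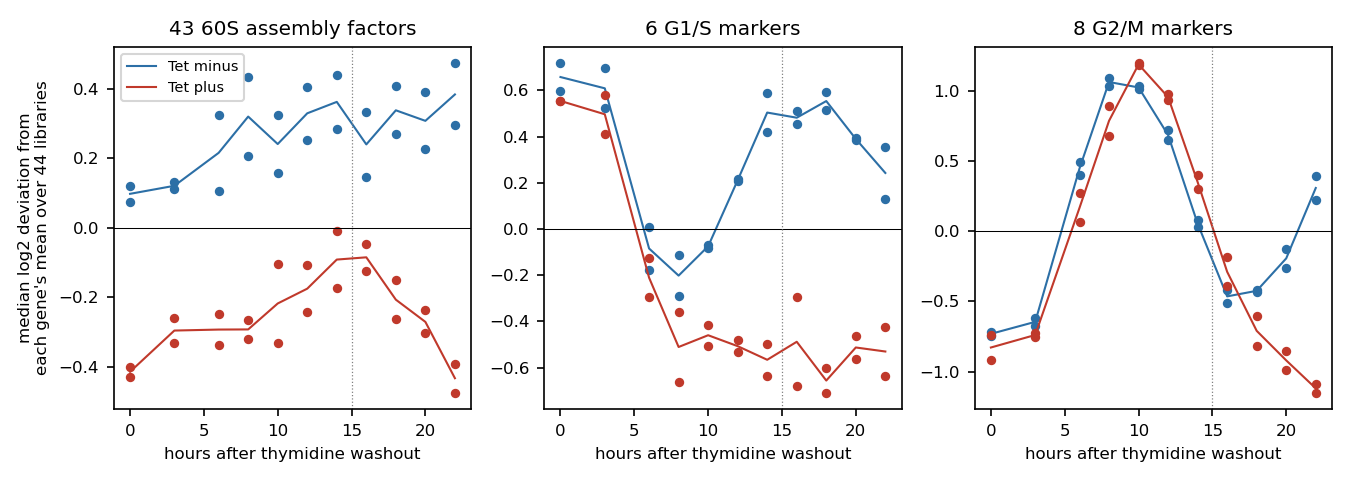
Median log2 deviation from each gene's own mean over 44 libraries (y axis) against hours after washout for the 43 factors, 6 G1/S markers and 8 G2/M markers, one point per library, red for Tet plus and blue for Tet minus, lines for means, and a dotted line before the 16 h libraries. In Tet minus and Tet plus the factors are at 0.10 and -0.41 at 0 h, and the G1/S markers are at 0.66 and 0.55 at 0 h and at 0.50 and -0.57 at 14 h.

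At 16 to 22 h, where arm and library set coincide, 39 factors were lower and none was higher (backgrounds 26.8% lower and 26.3% higher), with a median log2 fold change of -0.61. In 23 factors all 8 Tet plus libraries lay below all 8 Tet minus libraries, a pattern held by 9.52% of tested genes. The 5 factors lower by at least 2-fold were RRS1 (-1.37), MYBBP1A (-1.29), PES1 (-1.14), MRTO4 (-1.12) and RRP1 (-1.01), and the share of all tested genes at that size is not given here. RRS1 was then at 8.76 to 17.2 CPM (median 10.7) against 23.6 to 35.9 CPM (median 28.4). MYBBP1A was at 66.4 to 83.4 CPM against 146 to 214 CPM. The 4 factors that did not pass were RSL24D1 (0.19, adjusted p = 0.228), NMD3 (-0.03, adjusted p = 0.810), NSA2 (-0.13, adjusted p = 0.301) and RPF1 (-0.19, adjusted p = 0.0753). With the replicate block RSL24D1 passed as higher (0.20, adjusted p = 0.0380) and RPF1 as lower (-0.18, adjusted p = 0.0488). NVL, which did not pass at 0 to 14 h, was lower here (-0.21, adjusted p = 0.00530), but not without Tet minus 16 h replicate 2 (adjusted p = 0.0505). Scaled to the spike-ins, all 43 were higher in Tet plus at 16 to 22 h, with a median of 3.78, and the median of all genes was 4.41. The distance between these medians, -0.62, is nearly kept by any scaling that shifts all genes of a library alike. It is therefore no check. In a direct test of the later against the earlier difference, 14 factors were lower and 1, RSL24D1, was higher (backgrounds 12.3% and 8.24%). By time, 21 factors were lower at 16 h (14%), 27 at 18 h (11.2%), 26 at 20 h (13.7%) and 34 at 22 h (16.3%).

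The 16 h libraries differed from those around them. At 16 h the median of the 43 was -0.34, and RSL24D1 was at 166 and 207 CPM in Tet plus against 87.6 and 124 CPM in Tet minus, a log2 change of 0.82 (SE 0.270, adjusted p = 0.0242), the 1 factor to pass as higher at any time (12.9% of tested genes were higher at 16 h, 7.53% at 18 h, 10.2% at 20 h and 12.1% at 22 h). By 22 h RSL24D1 was at 106 and 99.4 CPM against 119 and 167 CPM. The arm difference at 16 h followed the GC content of the transcript: across the 43 factors Spearman's rho was -0.835, and across the 12151 tested genes with a GC value it was -0.475. The 22 factors of 47.9% GC or more had a median log2 fold change of -0.745 and the 21 others, of up to 46.6%, -0.054. Across the factors rho was also below 0 at 3 h (-0.734), 6 h (-0.692), 10 h (-0.523), 18 h (-0.43) and 20 h (-0.679), and near 0 at 8 h (0.029), 12 h (-0.011) and 14 h (0.042), with 0.186 at 0 h and 0.12 at 22 h. Across all tested genes with a GC value it was above 0 at 0 h (0.356), 8 h (0.257), 12 h (0.063), 14 h (0.135) and 22 h (0.29). It was below 0 there at 3 h (-0.327), 6 h (-0.26), 10 h (-0.17), 18 h (-0.066) and 20 h (-0.252). For the mean difference over 0 to 14 h rho was -0.36 across the factors and 0.006 across all tested genes with a GC value. Over 16 to 22 h it was -0.549 and -0.132. Medians of the higher and lower GC class of factors were -0.574 and -0.446 in the first span and -0.81 and -0.436 in the second. At 3, 6 and 20 h these medians were -0.585 and -0.227, -0.788 and -0.434, and -0.896 and -0.392. At 8, 12 and 14 h they were -0.556 and -0.583, -0.493 and -0.548, and -0.429 and -0.471. These factors share the same 4 libraries at a time, so the correlation is a description of those libraries. With an offset for GC content in each library, an alternative chosen after seeing the data, 40 factors instead of 33 lay below 0 at 16 h, none passed as higher, and 42 factors were lower over 0 to 14 h and 39 over 16 to 22 h. Over 16 to 22 h GNL3L (adjusted p = 0.399 by edgeR) and DDX24 (0.462) did not pass with these offsets, and NSA2 (0.00113) and RPF1 (0.0107) did.

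**Figure D5:**
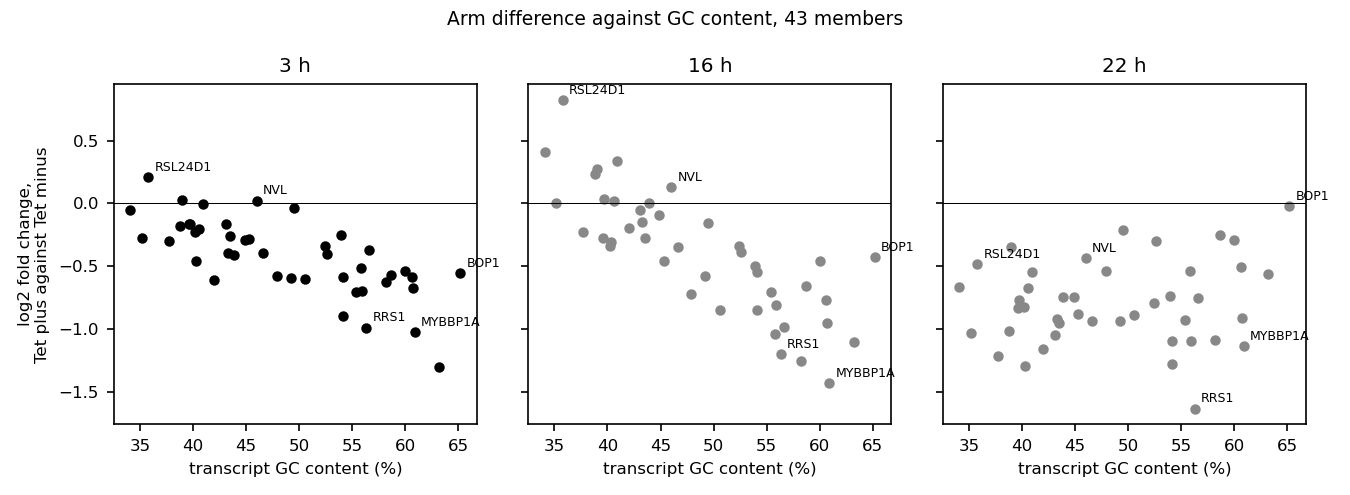
Arm difference (y axis, log2 fold change of Tet plus against Tet minus) against GC content of the longest coding transcript (x axis, percent) for the 43 factors at 3, 16 and 22 h. At 16 h the points run down from RSL24D1 at 0.82 to MYBBP1A at -1.43, with a rho of -0.835, and at 22 h they show no such slope (rho 0.12). Across all tested genes with a GC value rho was -0.475 at 16 h and 0.29 at 22 h.

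From 16 to 22 h, within the late Tet plus library set, 14 factors fell and none rose (background 4.65% fell), with a median over the 43 of -0.34. The lowest among the 14 were NSA2 (-0.86), RPF2 (-0.79), MAK16 (-0.76), PAK1IP1 (-0.70), NOC3L (-0.70) and RRS1 (-0.70). RPF2 went from 30.1 and 35.4 CPM at 16 h to 20.2 and 17.8 CPM at 22 h. This count was 22 with the replicate block (9.8%) and 0 without replicate 2 of Tet plus 16 h or without replicate 2 of Tet plus 22 h. In Tet minus none passed between the same times by edgeR (background 1.64%), and with the block 4 did (12.3%). At an unadjusted p under 0.05 there were 9, without the block, and the share of all tested genes for that rule is not given here. The G2/M marker median in Tet plus went from -0.29 to -1.12 over these hours, and its part in the result was not tested.

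Other genes of the same pathway set the values beside each other. Of 32 further 60S assembly factors that were tested, 27 were lower over 0 to 14 h and none was higher, with a median log2 fold change of -0.35, and 26 were lower at 16 to 22 h (background 26.8%). The lowest were URB2 (-0.69), GRWD1, a histone-binding WD-repeat protein (-0.65), and URB1 (-0.62), and the highest were EFTUD1, a GTPase of the last cytoplasmic steps (-0.0024, adjusted p = 0.983), GLTSCR2 (-0.04, adjusted p = 0.636) and SPATA5 (-0.11, adjusted p = 0.109). With the replicate block SPATA5 passed as lower (adjusted p = 0.0386, edgeR), as did ZNF622 and SENP3. Of 46 genes for ribosomal proteins of the 60S subunit, 13 were lower, with a median of -0.10 and values from -0.46 (RPL17) to 0.13 (RPL13A). RPL8 and RPL35 followed RPL17 at -0.30 and -0.29, and RPL37 (0.01) and RPL39 (0.0037) stood next to RPL13A. At 16 to 22 h, 9 of the 46 were lower and 2 higher, with a median of 0.02, where 26.8% of all genes were lower and 26.3% higher. The replicate block changed calls in both spans. At 0 to 14 h RPL19, RPL24 and RPL26 then passed as lower too, and RPL13A as higher. At 16 to 22 h RPL10 then passed as lower, and RPL5, RPL7, RPL9, RPL10A, RPL23, RPL27A, RPL34, RPL35A and RPL37A as higher (adjusted p of 0.0479 or less, edgeR). Side by side, 13 of 46 ribosomal protein genes and 42 of 43 assembly factors fell over 0 to 14 h, where 21.3% of all genes did; the difference between the lists was not tested. The 2 members that host small nucleolar RNAs in their introns can be set beside their guests. GNL3 fell by 0.55, and of its 3 guests SNORD19B fell by 0.61 (adjusted p = 0.000483) while SNORD19 (-0.31, adjusted p = 0.0709) and SNORD69 (-0.45, adjusted p = 0.131) did not pass. PPAN fell by 0.75, and its guests SNORD105 (-0.29, adjusted p = 0.586) and SNORD105B (-0.08, adjusted p = 0.742) did not pass. These values are for 0 to 14 h. At 16 to 22 h SNORD105B was higher in Tet plus (0.94, adjusted p = 0.00087, edgeR), while PPAN was at -0.78. No other guest passed then, and SNORD19B was at 0.0059.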

How the data were processed

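RNA depleted of rRNA was sequenced from 44 libraries of IMR5/75 cells, with ERCC spike-ins added. Per the submitters' processing notes, TopHat2 2.0.5, HTSeq and the build hg19 were used, and the authors deposited raw read counts per gene, with no normalization. Library groups came from the labels. The labels call replicates biological, with 2 per group.

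Counts were fitted with edgeR 4.0.16 (R 4.3.3): TMM scaling over 23367 gene rows without the 92 spike-in rows, filterByExpr by group, 1 mean for each of 22 groups, a quasi-likelihood test with 22 residual degrees of freedom, and Benjamini-Hochberg adjustment over 14534 genes, with a threshold of 0.05 that defines "lower", "higher" and "passed". The SE is the size of the log2 fold change over the root of its F statistic. CPM used TMM library sizes. Arm differences are means over times. The script was tested on simulated counts. Replicates of a group differed by far more than counting error, so the SE rests on replicate spread more than on depth; PPAN, with the fewest counts, had an SE below that of RSL24D1.

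Same-numbered libraries of the 2 arms deviated together from their group means in 10090 genes, with r of 0.373 or more at each time of 0 to 14 h and of 0.263 or more at 16 to 22 h, so numbers were taken to pair the arms. The replicate block has the same shift of replicate 2 at all times. For the members it is given where it changes a call over 0 to 14 h or 16 to 22 h, or a count by over 1.5 times. Calls of single members at single times are given without it. No 2 replicates agreed within sampling noise.

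The members and gene lists were chosen with earlier results of these data known. Named with values were the 5 lowest and 4 highest members over 0 to 14 h, the 4 with the smallest p for arm by time, the 4 with the widest Tet minus range, those passing at fewer than 2 of 11 times, MYCN, and the 3 lowest and 3 highest of each related list; others were chosen after their values were seen. GC content and overlapping exons came from GENCODE v29 transcripts, which gave a GC value for 83.6% of tested genes, and promoters from RefSeq. Alternatives were RLE scaling, DESeq2 1.42.0, no filter, no small nucleolar RNA rows, spike-in scaling, a replicate or lane block, GC offsets, the early or late libraries alone, and leaving out each library. One marker of the noradrenergic list, and sums that include it, are not reported here.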

Additional observations from a re-analysis of the deposited data

Results flagged for a closer look

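In 15 of the 43 factors the arm difference at 16 to 22 h differed from that at 0 to 14 h by a test of the difference itself (edgeR quasi-likelihood test, adjusted p under the threshold, background 12.3% lower and 8.24% higher). In 14 the later difference was the lower: the shift on the log2 scale was -0.47 in DDX56, -0.44 in PES1, -0.42 in RRP1, -0.38 in FTSJ3, -0.37 in MYBBP1A, -0.37 in MRTO4, -0.36 in NOP2, -0.36 in RRS1, -0.32 in RRP1B, -0.28 in PAK1IP1, -0.27 in WDR74, -0.26 in GNL2, -0.24 in DDX27 and -0.24 in NLE1. In RSL24D1 the later difference was the higher, by 0.47. DDX56, a helicase, is the clearest of them, with a log2 fold change of -0.41 at 0 to 14 h and -0.89 at 16 to 22 h (adjusted p of the difference 6.04e-06). FTSJ3, a rRNA methyltransferase, went from -0.28 to -0.66 (adjusted p 0.000462). Since the Tet plus libraries of 16 to 22 h have other lane numbers, a later time and another library set cannot be told apart. With GC offsets 6 of the 14 no longer passed, with -0.21 in RRS1, -0.22 in MRTO4, -0.11 in WDR74, -0.21 in NOP2, -0.08 in NLE1 and -0.11 in DDX27. With GC offsets and the replicate block together, 4 of these 6, RRS1, WDR74, NLE1 and DDX27, did not pass, and MRTO4 and NOP2 did. The call of NLE1 was lost without any 1 of 32 libraries, that of RSL24D1 without any 1 of 30 and that of PAK1IP1 without any 1 of 14. NLE1 also missed the threshold with RLE scaling (adjusted p = 0.0677), with DESeq2 (0.0690), without the filter (0.102) and without small nucleolar RNA rows (0.0556), and PAK1IP1 with RLE scaling (0.0523), with DESeq2 (0.0578) and without the filter (0.101).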

How the results depend on the processing

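The 42 lower factors of 0 to 14 h and the 39 of 16 to 22 h were also 42 and 39 with RLE scaling, with DESeq2, without the filter and without small nucleolar RNA rows, and 40 with the 28 early libraries alone (RSL24D1 and NMD3 lost). Spike-in scaling called none lower in either span or at any single time and none in the courses, and called all 43 in the difference between spans. It turned the late values above 0: 3.03 for RRS1, 3.11 MYBBP1A, 3.28 MRTO4, 3.26 PES1, 3.39 RRP1, 4.38 NMD3, 4.25 NSA2, 4.19 RPF1, 4.19 NVL, 4.13 GNL3L, 4.19 DDX24 and 4.12 MYCN. Likewise for the difference between spans: 3.91 for RRS1, 3.88 MYBBP1A, 3.91 MRTO4, 3.82 PES1, 3.98 WDR74, 3.97 NOP2, 4.04 NLE1, 3.84 RRP1, 3.99 PAK1IP1, 3.96 RRP1B, 4.03 GNL2, 3.80 DDX56, 4.01 DDX27 and 3.91 FTSJ3. NVL over 0 to 14 h turned to 0.0903 with spike-ins, 0.0195 with GC offsets (0.0195 with the block too) and 0.0073 without Tet minus replicate 2 of 8 h (-0.035 to 0.0073 without 1 library, also above 0 without replicate 2 of 12 or 14 h), and NMD3 at 16 to 22 h to 0.0328 without Tet minus 16 h replicate 2 (-0.0711 to 0.0328). Spike-ins gave 0 members called in place of 42 and 39.

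Without the filter 8 passed at 0 h. With the replicate block 26, 23, 30, 31 and 29 passed at 0, 3, 10, 12 and 14 h, and with GC offsets as well 29, 30, 36, 34, 34 and 33 at 0, 3, 8, 10, 12 and 14 h (20 at 0 h with GC offsets alone). Leaving out 1 library gave 40 to 42 at 0 to 14 h, 38 to 40 at 16 to 22 h, 12 to 15 for the difference between spans, and 0 for arm by time. By time it gave 1 to 16 at 0 h (lowest without either Tet minus 0 h library), 2 to 16 at 3 h (Tet plus 3 h replicate 2), 8 to 24 at 6 h (Tet plus 6 h replicate 2), 4 to 25 at 8 h (Tet minus 8 h replicate 2), 5 to 18 at 10 h (Tet minus 10 h replicate 2), 5 to 20 at 12 h (Tet plus 12 h replicate 1), 2 to 19 at 14 h (Tet plus 14 h replicate 1), 13 to 21 at 16 h (Tet minus 16 h replicate 2), 18 to 28 at 18 h (replicate 2 of Tet minus or replicate 1 of Tet plus at that hour), 19 to 26 at 20 h and 26 to 35 at 22 h, the lone library of an arm being assumed to vary like the other groups.

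In the courses the block gave 18 (Tet minus) and 9 (Tet plus) over 0 to 14 h, 17 and 14 with GC offsets too, 4 and 1 without the filter, and RLE 3 in Tet plus; leaving out 1 library gave 4 to 9 and 1 to 5. For 6 against 0 h, Tet minus gave 0 without the filter and 2 with the block, with or without GC offsets, and Tet plus 0 with RLE, without the filter or with GC offsets, 5 with the block and 2 with block and GC offsets, each 0 to 1 without 1 library. For 22 against 16 h, Tet minus gave 1 with RLE and 4 with the block (0 to 2 without 1 library), and Tet plus 22 with the block, 24 with GC offsets too, and 0 to 15 without 1 library. GC offsets lost the late calls of GNL3L (adjusted p = 0.399) and DDX24 (0.462) and gained NSA2 (0.00113) and RPF1 (0.0107). GNL3L also lost its late call without replicate 2 of Tet plus 16 h or 20 h (0.0786 at most). The early calls of NMD3 and RSL24D1 were each lost without Tet minus replicate 2 of 6, 8, 10 or 14 h or Tet plus replicate 1 of 3, 8, 10 or 12 h, that of NMD3 also without the 0 h libraries Tet minus replicate 2 or Tet plus replicate 1, and that of RSL24D1 without replicate 2 of Tet minus 12 h or replicate 1 of Tet plus 14 h. The causes were not tested.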
